A study of Apis mellifera with 13 samples.

Results

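The antennae of honey bee workers held 122 genes whose transcript level was higher in every library of older bees than in every library of younger bees, out of 13414 genes in the tables. These genes, called the age module here, were chosen by their values in the VSH and NVS libraries: a mean of at least 50 over the 8 libraries, the lowest of libraries 3 and 4 of both phenotypes above the highest of libraries 1 and 2, and a mean in the older 4 libraries at least 1.3 times that in the younger 4. Genes of odorant binding proteins, odorant receptors, CPR cuticle proteins and ribosomal proteins were left out by their symbol. The separation of older from younger bees was therefore used in the choice and is described below without a test, and the module was then read out in foragers and nurses, in VSH against NVS bees, and between neighbouring ages.

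RNA came from the flagella, the outer parts of the antennae, of adult Apis mellifera workers. The labels give 4 pairs of antennae per library, and the sampling protocol gives 8 pairs. VSH and NVS bees were marked workers that emerged from brood of a colony selected for hygiene against the mite Varroa and lived in 1 observation hive. VSH bees had been seen opening or emptying infested brood cells there, and NVS bees were never seen doing so. The mean age of VSH bees was 7.5, 9.75, 12.5 and 17 days in libraries 1 to 4, and that of NVS bees was 7.5, 9.5, 12.25 and 17.5 days. Foragers (FOR, libraries 2 and 3) and nurses (NUR, libraries 1, 2 and 3) came from 3 other hives, and their age is given as unknown, so that age and task cannot be told apart between them.

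A worker bee changes task as it ages: young bees clean cells and feed larvae as nurses, and older bees leave the hive to forage. The antenna is the main organ of smell, taste and touch, and its cells continue to build cuticle, defend themselves and maintain the fluid around the sensory neurons throughout adult life. Messenger-like RNAs that encode no protein, the long non-coding RNAs (lncRNAs), are known to be expressed in many tissues of the bee, and few have a described function.

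The values are pseudo-counts, read counts that were scaled to a common library size within each of the 2 tables, and they sum to 19.2 M to 20.3 M per library in the VSH and NVS table and to 33.6 M to 34.7 M in the FOR and NUR table. Because of this scaling the values do not give the depth of each library, and levels are compared within a table and within a gene only. The paper reports numbers of aligned reads that varied widely among the libraries of each table. The part of depth in the results was not tested. NUR2 stood apart from the other FOR and NUR libraries: it was the highest or the lowest of the 5 for 55.5% of the 8133 genes with a mean of at least 50, against 25.1% for NUR1, 37.1% for NUR3, 41.7% for FOR2 and 40.6% for FOR3, and results that rest on it are given with and without it. Markers of the antenna (6 of 6 genes found) summed to 834944 to 972591 in the older libraries and to 740402 to 810064 in the younger ones, without overlap. Singly, Obp4 and CSP1 did not overlap, while Obp1, Obp2, Obp5 and Or2 did. Obp4 met the rule in its values and was left out by symbol. Or2 had 9239 to 13125 in the older and 9307 to 11190 in the younger libraries. Sums of 7 muscle genes were 1740 in VSH4 and 92.2 to 181 in the other 7 VSH and NVS libraries. VSH4 also stood apart in the sum of 7 fat body and haemolymph genes, which was 4884 there and 1403 to 2033 in the other 7. The yolk protein gene Vg had 2146, against 69.4 to 204, and the storage protein gene Hex70a had 350, against 0 to 7.05. Rfabg and Hex110 were also highest in VSH4. Vhdl (128, against 101 to 286), HEX70b (10.3, against 3.03 to 31.3) and Hex70c (0) were not. VSH4 is 1 of the 4 older libraries that define the module, and without it the rule found 161 genes. Sums of 5 haemocyte genes were 1574 to 2134 in FOR and 2926 to 3471 in NUR, and 3 of 5 glial genes found summed to 7389 to 8823 in FOR and 9033 to 10919 in NUR, both without overlap. Singly, the haemocyte genes PPO and NimA were lower in FOR without overlap, and Hml, NimC1 and NimC2 overlapped. Of the glial genes, Eaat-2 and inx2 were lower in FOR without overlap. The glial gene repo overlapped, with 5205 and 6198 in FOR, against 5222, 3700 and 6419 in NUR. The part of these cell types in the results was not tested. In bulk tissue, fewer cells of a type and less RNA per cell cannot be told apart.

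The module was a small share of the antennal transcriptome. Of the 8133 genes with a mean of at least 50, 406 genes (4.99%) were higher in all older libraries, 129 of these reached the ratio of 1.3, and 7 were left out by symbol: Obp4, Obp11, Obp12, RpL32, RpL37, RpL37A and RpLP2. The mirrored rule, all older libraries lower, was met by 282 genes, and by 34 once the same ratio was asked for. The ratio of older to younger mean ran from 1.3005 to 3.38 in the members, with a median of 1.41. It was at least 1.5 in 42 members and at least 2 in 6. Just inside the ratio lay LOC724734 at 1.3005 and LOC725677 at 1.3007, and just outside it LOC725059 at 1.296 and Rps14, a ribosomal protein gene, also at 1.296. Just inside the minimum mean lay LOC102654270 at 50.5 and the microRNA gene Mir3764 at 52.7, and just outside it LOC102655016 at 49.7 and LOC100576687 at 49.0. The lowest older library was 1.003 to 1.39 times the highest younger one, with a median of 1.10, so that for many members the separation was narrow.

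**Figure D1:**
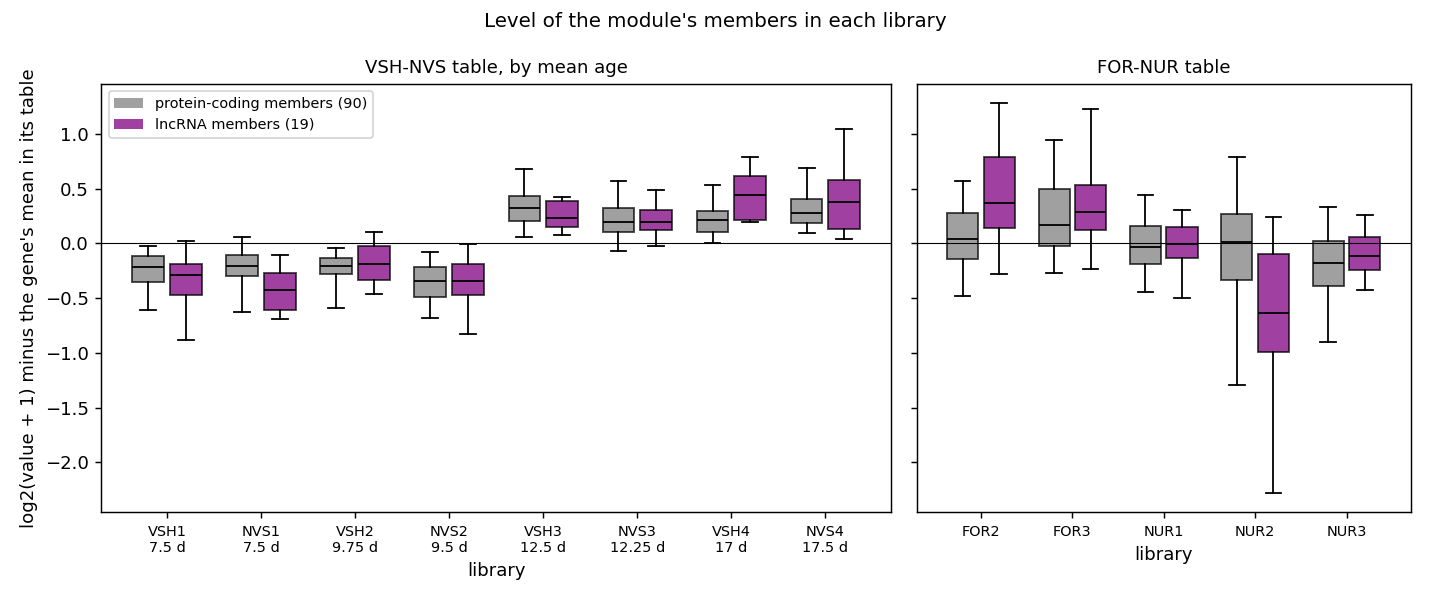
Level of the members in each library, as the log2(value + 1) minus the gene's mean in its own table, for 90 protein-coding (grey) and 19 lncRNA members (purple). Boxes span the quartiles with the median as a line, and whiskers the 5th to 95th percentile. VSH and NVS libraries are ordered by mean age in days; the step between libraries 2 and 3 was used to choose the genes. In the FOR and NUR table, which was not used in the choice, the medians of the lncRNA members were 0.37 and 0.28 in FOR2 and FOR3 and -0.64 in NUR2.

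The step between libraries 2 and 3 was not followed by a further common step. The median member lay at 0.85, 0.88, 1.23 and 1.18 times its own mean in VSH libraries 1 to 4, and at 0.85, 0.79, 1.15 and 1.23 times its mean in NVS libraries 1 to 4. VSH3 was the highest of the 8 libraries for 50 members (41.0%, against 16.3% of all genes with a mean of at least 50), and NVS2 was the lowest for 61 (50%, against 15.1%). The oldest libraries, VSH4 and NVS4, were the highest for 17 and 33 members. These counts follow in part from the rule, under which only an older library can be highest.

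Most members carry no described function in the sources used here. Of the 122, 105 are named by a LOC identifier alone, 7 have a description, and 110 could be matched to a biotype in the reference annotation. Over all 13414 genes, only 440 have a description, so that its lack is no trait of the members. Descriptions came from the study's supplementary lists of genes it called different, and the 7 are among those genes. The 12 members with the largest ratio were 5 genes with a known protein family, 4 lncRNAs and 3 others. LOC406144, abaecin, an antibacterial peptide that bees release on infection, had 53.0, 20.7, 58.3 and 178 pseudo-counts in VSH libraries 1 to 4 and 55.1, 26.2, 168 and 71.0 in NVS libraries 1 to 4. Its ratio was 3.07, yet the lowest older value was only just above the highest younger one. LOC409801, an esterase E4-like gene whose relatives in aphids break down ester insecticides, had 261, 302, 922 and 694 in VSH and 627, 442, 1183 and 991 in NVS libraries, a ratio of 2.32. Both phenotypes were highest in library 3. Cpap3-d, which encodes a chitin-binding cuticular protein of the peritrophin-like kind, had 83.6, 84.5, 227 and 127 in VSH and 105, 54.7, 198 and 187 in NVS libraries, a ratio of 2.25. It was also highest in library 3 of both phenotypes. LOC552771, hydroxyacid oxidase 1-like, related to enzymes that oxidise small hydroxy acids in peroxisomes, had 78.1, 88.8, 147 and 188 in VSH and 113, 119, 190 and 249 in NVS libraries. Its levels followed age in both phenotypes without a reversal. CPF2, a cuticle protein of the CPF family, had 49.0, 69.7, 135 and 104 in VSH and 56.7, 60.8, 96.7 and 109 in NVS libraries. Of the remaining 7, LOC727210 had the largest ratio of the module, 3.38, at values that varied among the younger libraries from 5.18 in NVS1 to 57.1 in NVS2.

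In foragers against nurses, which the rule did not use, the members leaned towards foragers, but no member passed the test on its own. The median difference of FOR minus NUR over the 122 members was 0.23 on the log2(value + 1) scale, where the median of all genes tested was 0.00, and 82 members were higher and 40 lower in FOR. By limma, 0 members passed an adjusted p of 0.05, where 10 of 10436 genes tested did (0.0958%), and the lowest adjusted p among the members was 0.142. The study's edgeR test on read counts called many more genes between these groups. The 0 calls therefore do not show that the members were equal in FOR and NUR. At an unadjusted p under 0.05, 23 members (18.9%) were higher in FOR, against 6.18% of all genes tested and 6.02% of those with a mean of at least 50. Lower in FOR were 3 members (2.46%), against 6.82% of all genes and 7.39% of those with a mean of at least 50. Both FOR libraries lay above all 3 NUR libraries for 36 members (29.5%, against 16.1% of all genes), and below them for 10 (8.20%, against 16.5%). Without NUR2 the median was 0.24. At that unadjusted p, 29 members were then higher and 2 lower (23.8% and 1.64%, against 6.55% and 6.04% of 10309 genes). Without NUR2, 50 members were higher and 11 lower without overlap (41.0% and 9.02%). Over all 13414 genes, including those too low to test, 2430 were higher and 2552 lower without overlap in the same libraries. The count of 23 depended on each forager library: it was 16 without FOR2 and 10 without FOR3, where 3 and 1 members were lower. Differences in the members ran from -1.04 to 2.60.

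Without NUR2, 3 members (2.46%) passed the threshold, against 85 of 10309 genes (0.825%). All 3 were higher in FOR: LOC100576419, LOC102654810 and crh-BP. The gene crh-BP encodes a binding protein for peptides of the corticotropin releasing hormone kind, which in vertebrates limits the action of that stress hormone. It had 2147 and 1892 pseudo-counts in FOR, against 904, 438 and 847 in NUR. The groups did not overlap, and the difference was 1.54 ± 0.31 (SE) with an adjusted p of 0.142 by limma. Without NUR2, the lowest nurse library, it was 1.204 with an adjusted p of 0.0156 by limma. With age it had 396, 314, 799 and 518 in VSH libraries 1 to 4 and 371, 408, 416 and 550 in NVS libraries, so that VSH3 stood above the rest. LOC100576419, an lncRNA, had 534 and 733 in FOR, against 155, 44.4 and 185 in NUR. Its difference was 2.51 ± 0.59 (adjusted p = 0.188 by limma), and 1.88 without NUR2 (adjusted p = 0.0229 by limma). LOC102654810, another lncRNA, had 813 and 743 in FOR, against 350, 46.6 and 319 in NUR. The FOR libraries were close to each other, and NUR2 was far below the other nurses, with a difference of 2.15 ± 0.82 (adjusted p = 0.344 by limma) that was 1.21 without NUR2 (adjusted p = 0.0356 by limma). Both lncRNAs also followed age step by step: LOC102654810 had 99.1, 188, 233 and 333 in VSH and 85.6, 151, 253 and 398 in NVS libraries 1 to 4, and LOC100576419 had 49.6, 71.2, 101 and 158 in VSH and 59.1, 87.0, 90.3 and 194 in NVS libraries.

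**Figure D2:**
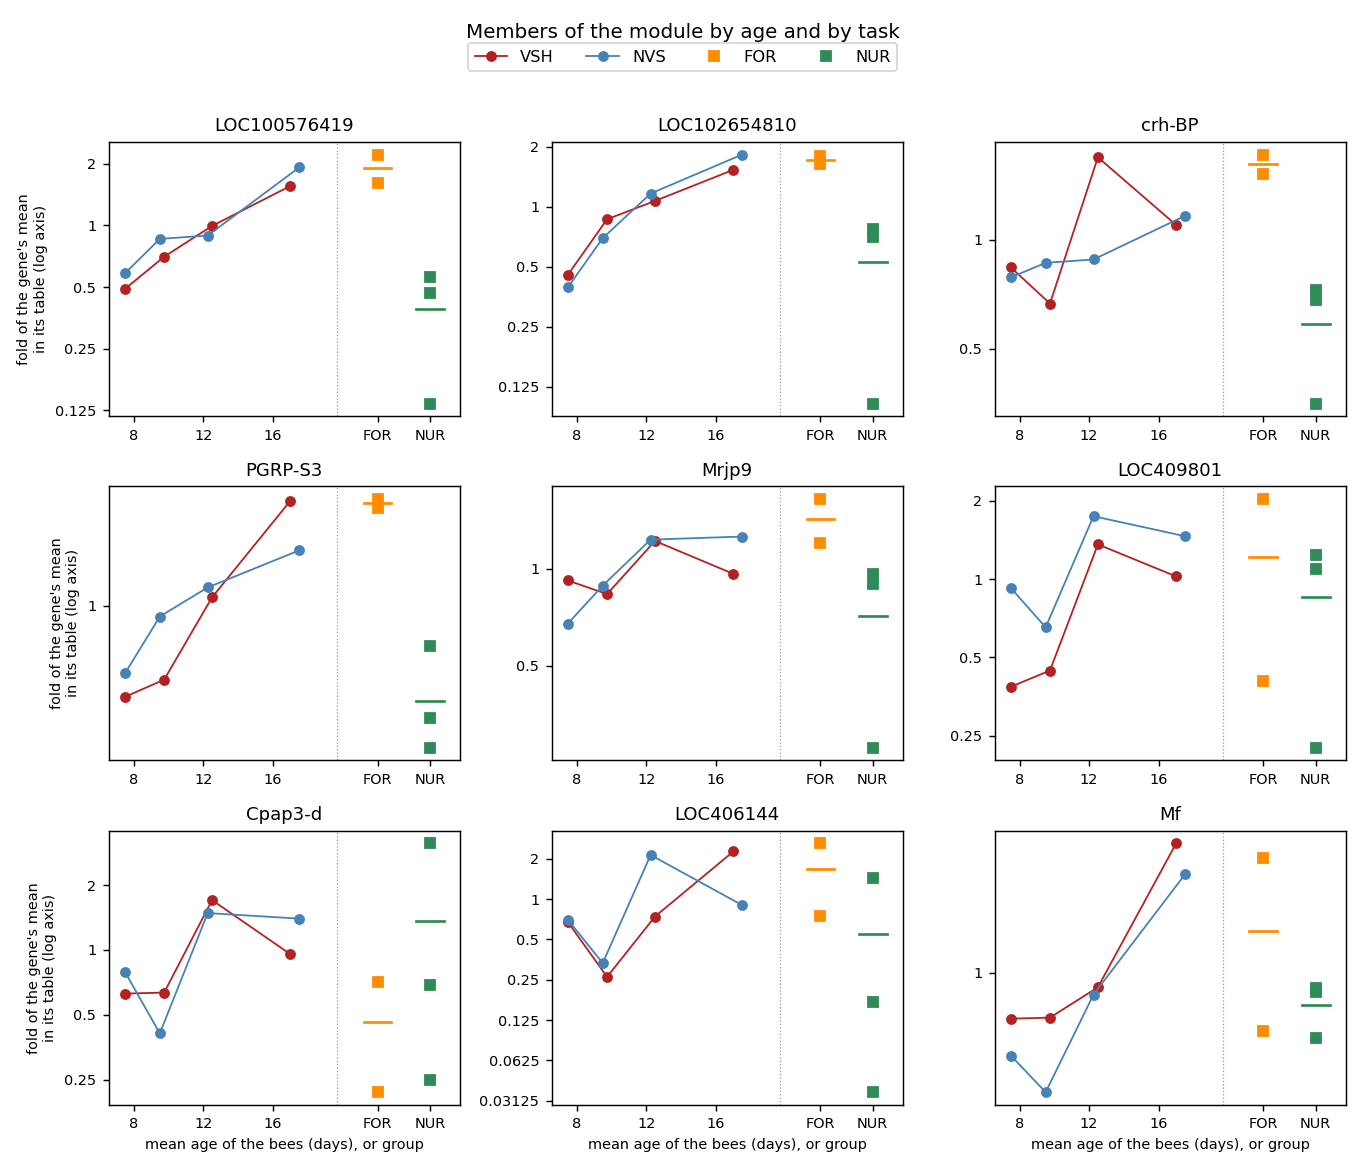
Levels of 9 members by mean age of the bees (VSH red, NVS blue circles, 1 point per library) and in foragers and nurses (orange and green squares, 1 per library, with the group mean as a bar). The y axis is the fold of the gene's mean in its own table, on a log axis. FOR libraries lie above NUR libraries for LOC100576419, LOC102654810, crh-BP, PGRP-S3 and Mrjp9, and the groups overlap for LOC409801, Cpap3-d, LOC406144 and Mf.

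Immune genes were the list with most members, 3 of the 28 such genes with a mean of at least 50. They were LOC406144 (abaecin, above), PGRP-S3 and Dl. PGRP-S3 encodes a short peptidoglycan recognition protein, a family that binds bacterial cell walls and, in Drosophila, starts the Toll pathway. It had 663 and 683 pseudo-counts in FOR, against 300.5, 420 and 332 in NUR, a difference of 0.95 ± 0.20 (adjusted p = 0.153 by limma) that was 1.09 without NUR2. The groups were clearly apart, and the gene followed age in both phenotypes, with 195, 207, 271 and 373 in VSH and 211, 254, 280 and 316 in NVS libraries. Dl entered the list by its symbol alone. Without a description in the sources used here, it may or may not be an immune gene. It had 177 and 234 in FOR, against 127, 236 and 122 in NUR, so that NUR2 lay beside the higher forager. Abaecin had 64.7 and 227 in FOR, against 3.15, 14.9 and 125 in NUR. The difference of 2.60 ± 1.34 was the largest of the 122 members, but NUR3 lay above FOR2. Over the 33 immune genes tested, 7 (21.2%) were higher and 4 (12.1%) lower in FOR at an unadjusted p under 0.05, against 6.18% and 6.82% of all genes, and 0 passed the adjusted threshold by limma. Genes entered the lists by symbol or by description. The descriptions came from the study's supplementary lists of genes that it called different in these libraries. The shares of this and the later lists are therefore partly built in and are no independent result.

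Of the serine proteases and their inhibitors, 1 of the 25 genes with a mean of at least 50 was a member. This was SPH37, a serine protease homologue, a kind of protein that keeps the protease fold without the catalytic activity. It had 2211 and 2414 in FOR, against 1652, 1786 and 1176 in NUR, without overlap (0.61 ± 0.19, adjusted p = 0.287 by limma). Of the 39 genes of that list tested, 5 (12.8%) were higher and 4 (10.3%) lower in FOR at an unadjusted p under 0.05, against the same 6.18% and 6.82%, and 0 passed at the adjusted one.

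The cuticle members overlapped between FOR and NUR. The list of cuticle and chitin genes outside the CPR family held 2 members among its 18 genes with a mean of at least 50, and 10 of those 18 were lower in the older libraries. Cpap3-d had 73.2 and 238 in FOR, against 230.5, 1051 and 83.3 in NUR. The high nurse was NUR2, and the difference of -1.04 ± 1.01, the lowest of the module, was -0.07 without it. CPF2 had 117 and 152 in FOR, against 74.6, 180 and 57.2 in NUR, with NUR2 again the highest. Over the 32 cuticle genes tested, 1 (3.13%) was higher and 7 (21.9%) lower in FOR at an unadjusted p under 0.05, against 6.18% and 6.82% of all genes, and 0 passed at the adjusted one by limma.

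Mrjp9 and Y-h belong to related families, the major royal jelly proteins and the yellow proteins from which these are thought to have evolved, and they are neighbours in the gene order of the reference assembly Amel_HAv3.1. Mrjp9 had 3586, 3254, 4758 and 3760 in VSH and 2636, 3457, 4804 and 4908 in NVS libraries 1 to 4. It had 8291 and 11337 in FOR, against 6168, 1912 and 6647 in NUR. The groups did not overlap, and the difference of 1.18 ± 0.51 (adjusted p = 0.397 by limma) was 0.60 without NUR2. The other 9 royal jelly and hypopharyngeal gland genes summed to 2550 and 11989 in FOR and to 1259, 1137 and 8154 in NUR, so that FOR3 and NUR3 carried more gland transcripts than the other libraries, and the part of this in the Mrjp9 values was not tested. In the VSH and NVS table that sum was 959 to 1737 in the older and 780 to 1570 in the younger libraries, with overlap. Y-h had 75.5 and 240.5 in FOR, against 121, 90.8 and 360 in NUR, with full overlap. Because the royal jelly genes are similar in sequence, reads may be shared among them.

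The remaining named proteins were chosen for mention after their values were seen. Dnt, in Drosophila the doughnut receptor of the Ryk family, had 197 and 296 in FOR, against 163, 138 and 120 in NUR, without overlap. LOC102654592, a golgin subfamily A member 6-like gene, had 186 and 97.3 in FOR, against 92.0, 68.5 and 48.2 in NUR, also without overlap. The groups overlapped for pnt (in Drosophila the ETS transcription factor pointed), Slip1, Apf, Ndufb2, a subunit of respiratory complex I, and mRpS33, a protein of the mitochondrial ribosome, whose differences lay between -0.01 and 0.22.

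The unnamed genes that were highest in foragers included protein-coding LOC551089, with 208 and 343 in FOR, against 139, 22.3 and 38.7 in NUR. Its difference was 2.40 ± 0.73 (adjusted p = 0.279 by limma), and 1.84 without NUR2. LOC102654270 had 91.3 and 126 in FOR, against 37.0, 39.0 and 38.3 in NUR. Its nurse libraries were close to each other, and the difference was 1.47 ± 0.36 with NUR2 and 1.48 without it. LOC100576483 had 182 and 233 in FOR, against 122, 45.4 and 84.5 in NUR, a difference of 1.39 ± 0.45. LOC410042 had 2155 and 2109 in FOR, against 1029, 1499 and 1633 in NUR, a difference of 0.65 ± 0.20. None of these passed the adjusted threshold.

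The 10 members that were lower in FOR without overlap differed by little. Of the 8 with the largest difference, the lncRNA LOC102654054 had 297 and 308 in FOR, against 384, 407 and 434 in NUR, a difference of -0.43 ± 0.18. LOC551479 had 5391 and 5000 in FOR, against 7077, 6527 and 6056 in NUR (-0.33 ± 0.11, adjusted p = 0.301 by limma). LOC100576530 had 3597 and 3267 in FOR, against 4613, 4352 and 3986 in NUR (-0.33 ± 0.11). The nurse libraries lay close together in all of these. Rpl41, a ribosomal protein gene whose symbol is spelled so that the rule did not leave it out, had 5396 and 6374 in FOR, against 6929, 7576 and 7095 in NUR (-0.29 ± 0.11). LOC412072, LOC724638, LOC724639 and LOC726297 differed by -0.41, -0.26, -0.24 and -0.23. Leaving out NUR2 kept the sign of all 8.

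The 6 members with the highest mean pseudo-count did not share a direction in FOR and NUR. LOC552366 had 134929, 159531, 231540 and 192457 in VSH libraries 1 to 4 and 156333, 165936, 230586 and 225489 in NVS libraries, the highest mean of the 122. It had 396846 and 307137 in FOR, against 303667, 119682 and 290578 in NUR, where the lower forager was barely above the highest nurse. LOC100577683 had 25036 and 23635 in FOR, against 19148, 20792 and 21096 in NUR, a difference of 0.26 ± 0.11. LOC726297 and LOC724221 were lower in FOR without overlap, by -0.23 ± 0.13 and -0.12 ± 0.11, and LOC551381 and LOC726118 overlapped.

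Many members were long non-coding RNAs, a feature that the rule did not use. Of the 110 members with a biotype, 19 (17.3%) were lncRNAs, against 239 of 7644 genes with a mean of at least 50 (3.13%). Put the other way, 7.95% of those lncRNAs were members, and 1.22% of the 7393 protein-coding genes. The lncRNA members also had lower levels, with a median mean pseudo-count of 175, against 290.3 in protein-coding members, and over all genes with a mean of at least 50 these medians were 143 and 931. The part of this in their share was not tested. The mirrored set of 34 genes that were lower in older bees held 1 lncRNA among its 29 matched genes. Mir3764, the only microRNA gene in the module, had 48.3, 55.0, 60.7 and 61.1 in VSH and 33.5, 27.7, 71.3 and 63.9 in NVS libraries. The direction was not limited to members: of the 239 lncRNAs, 181 (75.7%) had a higher mean log2 value in the older libraries, against 47.2% of protein-coding genes, with a median difference of 0.16. Within the older bees, 170 of the 239 (71.1%) were higher in libraries 4 than in libraries 3, against 44.6% of protein-coding genes, and within the younger bees 69.9% were higher in libraries 2 than in libraries 1, against 49.9%.

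The lncRNAs were also higher in foragers. Among the 19 lncRNA members, 15 were higher and 4 lower in FOR, with a median difference of 0.50, against 59 higher and 31 lower and a median of 0.20 in the 90 protein-coding members. Both FOR libraries lay above all NUR libraries for 10 of the 19 (52.6%), against 31.4% of all 239 lncRNAs and 24.4% of the protein-coding members. Among all 239 lncRNAs the median was 0.32, and 181 were higher in FOR. NUR2 moved with this result: it was the lowest of the 5 libraries for 11 of the 19 lncRNA members (57.9%) and for 124 of the 239 lncRNAs (51.9%), against 25.7% of protein-coding genes. Without NUR2 the median was 0.25 in lncRNA members, 0.21 in all lncRNAs and 0.24 in protein-coding members, so that the medians of lncRNA and protein-coding members were far apart only with that library, while 84.2% of lncRNA members and 70.0% of protein-coding members were still higher in FOR. LOC102653661 had 498 and 335 in FOR, against 211, 98.1 and 176 in NUR. LOC100578187 had 336 and 225 in FOR, against 168, 59.2 and 130 in NUR. LOC102655794 had 274 and 183 in FOR, against 117, 84.3 and 79.5 in NUR, and its difference was 1.27 ± 0.33 with NUR2 and 1.205 without it. These 3 did not overlap between the groups, and NUR2 was the lowest library for the first 2 of them. The library kit keeps strand, but whether the counting used it is not given in the sources used here, so that reads of an lncRNA and of a gene that overlaps it may not be told apart.

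**Figure D3:**
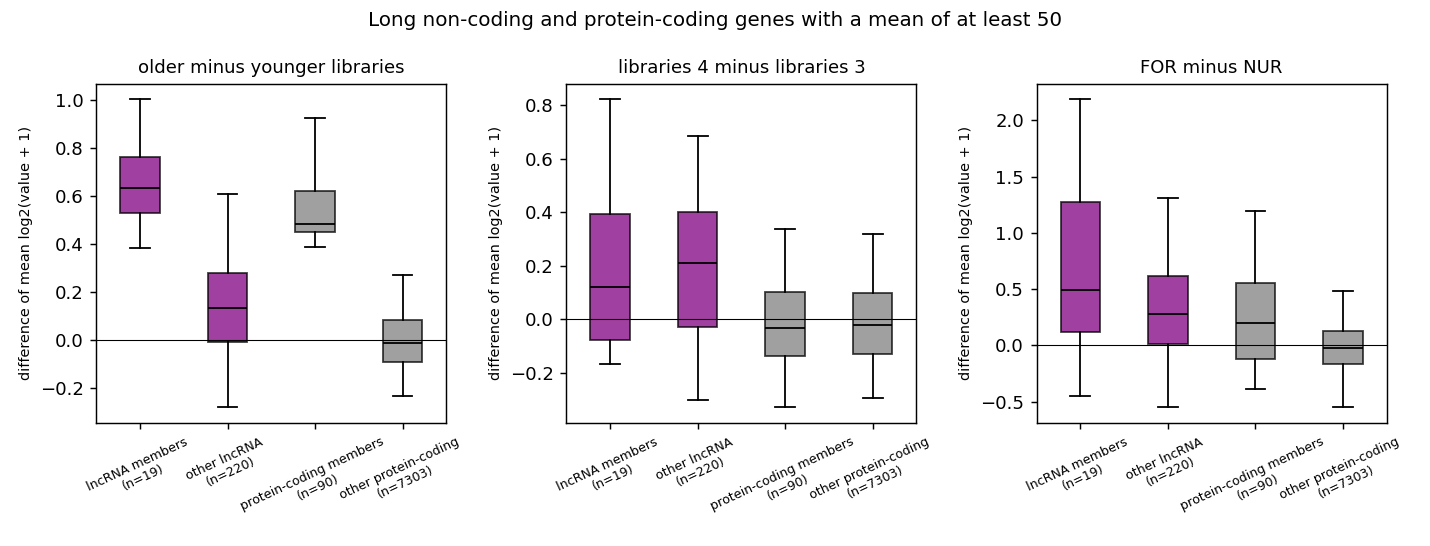
Difference of mean log2(value + 1) for lncRNAs (purple) and protein-coding genes (grey) with a mean of at least 50, split into members of the module and other genes, between older and younger libraries (left, used to choose the members), libraries 4 and 3 (middle) and FOR and NUR (right). Boxes span the quartiles around the median, and whiskers the 5th to 95th percentile. Outside the module, the median lncRNA lay at 0.13, 0.21 and 0.28 and the median protein-coding gene at -0.01, -0.02 and -0.02 in the 3 comparisons.

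Between the oldest bees and the next oldest, the members had no common direction. These 4 libraries supplied values to the rule, which leaves out genes with an older value near the younger ones, so that what follows is a description and the counts are no independent test. Libraries 4 minus libraries 3, fitted over both phenotypes, had a median of -0.02, with 57 members higher and 65 lower, and the median lay between -0.07 (without NVS4) and 0.07 (without VSH4) when 1 library was left out. By limma 0 members passed the adjusted threshold, where 11 of 10204 genes did (0.108%), and at an unadjusted p under 0.05, 8 members (6.56%) were higher and 2 (1.64%) lower, against 7.41% and 6.12% of all genes tested. Both libraries 4 lay above both libraries 3 for 23 members (18.9%, against 20.1%) and below them for 20 (16.4%, against 20.9%). The largest difference was that of LOC100576419, 0.87 ± 0.24, whose values in all libraries are given above. LOC102655794, an lncRNA, had 135 and 119 in VSH4 and NVS4, against 77.4 and 66.0 in VSH3 and NVS3, and 53.2 to 61.8 in the younger libraries, a difference of 0.82 ± 0.26. Mf, by its symbol the gene of myofilin, a protein of the muscle thick filament in Drosophila, had 224 and 199 in VSH4 and NVS4, against 131 and 127 in VSH3 and NVS3, and 88.3 to 117 in the younger libraries (0.71 ± 0.20). The muscle list summed to 1740 in VSH4 and 165 in NVS4, against 116 in VSH3 and 181 in NVS3, and its part in the Mf values was not tested. In FOR against NUR, Mf overlapped, with 187 and 357 against 216, 219 and 182. Members that were lower in the oldest bees included LOC102654920, with 207 and 192 in VSH4 and NVS4, against 290.5 and 259 in VSH3 and NVS3 (-0.46 ± 0.16), LOC724638 (-0.39 ± 0.18) and LOC102655965 (-0.28 ± 0.09).

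The members that were higher in the oldest bees were more often those higher in foragers. Of the 57 members with a positive difference between libraries 4 and 3, 46 were higher and 11 lower in FOR, with a median of 0.46, and 23 (40.4%) were higher and 0 lower without overlap. Of the 3769 genes with a mean of at least 50 and a positive difference, 18.1% were higher and 14.6% lower in FOR without overlap. Of the 65 with a negative difference, 36 were higher and 29 lower in FOR, with a median of 0.09, and 13 (20%) were higher and 10 (15.4%) lower without overlap, against 11.7% and 20.9% of the 4364 genes with a negative difference. Across the 122 members the 2 differences had a Spearman correlation of 0.42, against 0.16 across the 8133 genes with a mean of at least 50, and the coefficient was 0.73 across the 19 lncRNAs and 0.24 across the 90 protein-coding members. Without NUR2 it was 0.45 across the members. These are descriptions across genes, which share libraries and are not independent replicates.

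**Figure D4:**
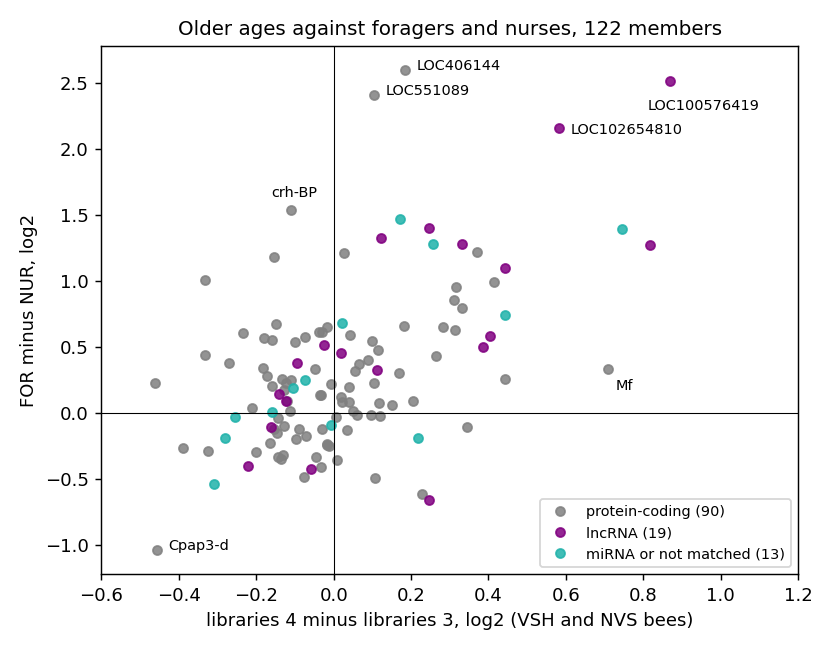
Difference between libraries 4 and libraries 3 of VSH and NVS bees (x axis, log2) against the difference between FOR and NUR (y axis, log2) for the 122 members, 1 point per gene, coloured by biotype. Right of 0, 46 members lie above and 11 below the horizontal line. LOC100576419 is far along both axes, and Mf differs between the older ages more than between FOR and NUR. LOC406144, LOC551089 and crh-BP are high in FOR with a small mean difference between the older ages. For each of them, VSH and NVS bees differed in opposite directions between libraries 3 and 4.

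Within the younger bees, libraries 2 minus libraries 1 had a median of -0.06 over the members, with 53 higher and 69 lower. These libraries too supplied values to the rule, and the counts are given as a description. The direction rested on NVS2, the lowest library for 61 members: without it 74 members were higher and 48 lower, with a median of 0.05. By limma 0 members and 0 of 10204 genes passed the adjusted threshold (0%). At an unadjusted p under 0.05, 4 members were higher (3.28%, against 2.28% of all genes) and 10 lower (8.20%, against 2.54%), and the 10 became 3 without NVS1 or without NVS2. The 4 included LOC102654810 (0.87 ± 0.19), Y-h (0.72 ± 0.28) and LOC727210 (1.57 ± 0.59). Y-h had 52.4 and 65.7 in VSH2 and NVS2, against 32.0 and 38.6 in VSH1 and NVS1, and 66.4 to 86.0 in the older libraries. Of those that were lower, LOC552561 had 105 and 101 in VSH2 and NVS2, against 158 and 169 in VSH1 and NVS1 (-0.66 ± 0.18), LOC726335 had 140 and 144, against 190 and 217 (-0.52 ± 0.16), and LOC726118 had 4005 and 3527, against 4621 and 4652 (-0.30 ± 0.08). These 3 had 178 to 226, 226 to 245 and 5355 to 5968 in the older libraries, and so were lowest in libraries 2.

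Between VSH and NVS bees, whose ages were matched, no member passed the test without pairing. The study's edgeR test on read counts called many more genes between these groups than the 4 called here. The 0 calls therefore do not show that the members were equal in VSH and NVS. The median of VSH minus NVS was 0.07 and had no stable sign: it lay between -0.04 (without VSH3 or without NVS2) and 0.16 (without VSH1 or without NVS4), and was -0.01 without VSH4 and 0.00 without NVS1. By limma 0 members passed the adjusted threshold (0.0392% of all genes did), with 0 members higher and 0 lower at an unadjusted p under 0.05, where 5.73% and 5.43% of all genes were. The rule asks every older library of both phenotypes to lie above every younger one. It therefore disfavours genes that differ more between the phenotypes than with age, and this count says little about the members. With libraries of the same number paired, 2 members (1.64%) passed, both lower in VSH, against 127 of 10204 genes (1.24%), a share near that of the members. The rule used these same libraries and asked for a like step in both phenotypes. The paired counts and p-values of members are therefore a description. At an unadjusted p under 0.05 in the paired fit, 13 members (10.7%) were higher and 6 (4.92%) lower in VSH, against 9.08% and 8% of all genes. LOC410042 had 442, 484, 745 and 713 in VSH libraries 1 to 4, against 566, 692, 945 and 965 in NVS libraries, lower in VSH in 4 of 4 pairs (-0.41, adjusted p = 0.0254 by limma with the pairs as a block). LOC409801, the esterase E4-like gene whose values are given above, was also lower in VSH in 4 of 4 pairs (-0.67, adjusted p = 0.0313 by limma with the pairs as a block). Without the pairs their differences were -0.41 ± 0.19 and -0.67 ± 0.38. The largest differences in the other direction were those of LOC725482 (0.42 ± 0.22), Rpl41 (0.33 ± 0.16) and LOC724639 (0.28 ± 0.15), and SPH37 was at -0.28 ± 0.15.

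The size of the older to younger difference was compared between the phenotypes with an interaction term. The rule asks every member to be higher in the older libraries of both phenotypes, which limits how far the 2 differences can part, so that these values are a description. By limma 0 members passed the adjusted threshold (0.0196% of all genes did), and 0 members had a larger difference in VSH at an unadjusted p under 0.05, against 0.99% of all genes, and 4 (3.28%) a smaller one, against 1.72%. LOC726250 had 344, 392, 427 and 452 in VSH libraries 1 to 4 and 219, 234, 446 and 607 in NVS libraries, so that its increase in VSH bees was smaller by 0.94 ± 0.23 on the log2 scale. The lncRNA LOC102654054 had 171, 184, 220 and 193 in VSH and 112, 94.7, 208 and 219 in NVS libraries (-0.82 ± 0.26), and LOC100576902 followed at -0.49 ± 0.17. In the other direction stood crh-BP (0.57 ± 0.29), LOC409801 (0.47 ± 0.26) and LOC100576944 (0.41 ± 0.20). LOC726250 is also a neighbour of another member, LOC408510, in the reference gene order, and besides Mrjp9 and Y-h the other 2 such pairs were LOC724221 with LOC412888, and the lncRNAs LOC100578608 and LOC100577999.

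Of 30 lists of antennal, metabolic and signalling genes, 25 held no member. Only 122 of the 8133 genes with a mean of at least 50 were members, and the lists held 3 to 28 such genes each. A list of this size can lack a member for that reason alone, so that these 25 lists show no absence of a kind of gene from the module. Among them were the cytochromes P450, of which 22 had a mean of at least 50, the chemosensory proteins, the circadian clock genes and the heat shock chaperones, all 15 of which were lower on average in the older libraries. All 9 histone genes with a mean of at least 50 were higher on average in the older libraries, but none met the rule. Of all genes with a mean of at least 50, 48.4% were higher on average in the older libraries. The age of the bees and the number of their library cannot be told apart in these samples.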

How the data were processed

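Antennal RNA of 13 libraries (4 VSH, 4 NVS, 2 FOR, 3 NUR) was sequenced. Per the labels and the study's methods, the authors used a strand-keeping TruSeq kit, CASAVA 1.8.2, FastQC, TopHat2 with Bowtie2 2.2.3 against the bee genome, HTSeq 0.6.1p1 and edgeR 3.4.0 (Relative Log Expression). The deposited values are in the unit signal: pseudo-counts scaled to a common library size, with 1 table per experiment. None of the values was a whole number (0%), so that count tests were not run and depth is unknown. Each table was analysed on its own, 0 sample columns were left unmapped, and values below 1e-10 were set to 0. Biotypes and gene order came from the RefSeq gene table of Amel_HAv3.1, which matched 10485 genes; no sequence or promoter was analysed here.

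Genes with a sum of at least 15 (FOR and NUR) or 20 (VSH and NVS) were tested on log2(value + 1) by limma 3.58.1 (R 4.3.3, moderated variances with an intensity trend). Tests were two-sided, p-values were adjusted by the Benjamini-Hochberg method across every gene in the fit, and the threshold was 0.05. Contrasts of library numbers had phenotype and number as factors. Fold changes on this scale understate the change of low genes. The fits were tested on simulated data. VSH and NVS bees came from brood of 1 colony and lived in 1 hive, and FOR and NUR bees came from 3 hives whose match to the libraries is not given in the sources used here, so that p-values measure only the spread between these libraries. VSH and NVS libraries with the same number are matched for age, and they were paired by this number. Their deviations from the group mean correlated at 0.161, 0.215, 0.276 and 0.388 in pairs 1 to 4. In pairs 2 to 4 this was the highest correlation of the VSH library with any NVS library. VSH1 correlated more, at 0.279, with an NVS library other than its partner. Alternatives were other pseudocounts, filters, scalings, thresholds of the rule, the pairing, and each library left out.

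The members and lists were chosen with earlier results of these data known. Lists were filled by symbol or by description, and descriptions, held by 440 genes, came from the study's supplementary lists of genes it called different. The text names the 12 members with the largest ratio, the 6 with the highest mean, up to 8 each way without overlap in FOR against NUR, the 3 with the smallest p each way in the other contrasts, members of the 30 lists and the genes beside the thresholds of the rule, 44 members in all. Other names were chosen after their values were seen.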

Additional observations from a re-analysis of the deposited data

Results flagged for a closer look

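Among 88 groups of 4 VSH or NVS libraries examined for the 44 named members, 2 held a library that lay far from the other 3. Among 4 values drawn from 1 normal distribution, a gap of this size arises in about 1 of 20 groups. The libraries here differ in age and the genes were chosen by the order of these values, so that this rate does not hold for them. Mf had 224 pseudo-counts in VSH4, against 116 to 131 in the other 3 VSH libraries. LOC102655794 had 119 in NVS4, against 59.3 to 66.0 in the other 3 NVS libraries. Both are the oldest libraries of their phenotype, and both genes were also highest in library 4 of the other phenotype.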

How the results depend on the processing

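The module held 206 genes with a ratio of at least 1.2 and 42 with a ratio of at least 1.5, and 137 to 185 genes when 1 library was left out, the most without VSH replicate 2. Members called in FOR against NUR numbered 0 to 3 when 1 library was left out, the 3 without NUR replicate 2, and 0 under all other alternatives run. The median FOR minus NUR difference was 0.58 for members with a ratio of at least 1.5, against 0.23 for all, and 0.17 to 0.30 with 1 library left out. Members without overlap numbered 46, and 59 to 71 with 1 library left out, the most without FOR replicate 2, since fewer libraries are easier to separate. With the pairs as a replicate block, 2 members passed in VSH against NVS, and 127 genes in all, against 4 without it. FOR and NUR share only the numbers 2 and 3. With that number as a replicate block, 0 members and 6 genes passed in FOR against NUR, with a median of 0.23. The block changed no other call of members. Over all genes, the calls in FOR against NUR ran from 0 to 85, against 10 in the reported fit, with 85 without NUR replicate 2, 12 after quantile normalisation, 4 at a pseudocount of 0.5 and 1 without the trend. With 1 library left out, the calls over all genes were 0 to 11 in VSH against NVS, 0 to 27 between libraries 4 and 3 (11 with all libraries), 0 to 13 between libraries 2 and 1 (0 with all) and 0 to 5 for the interaction (2 with all), and 0 members were called in any of these 4. Of 351 alternative values of 27 named members in FOR against NUR, 348 stayed on the same side of the threshold with the same sign, 3 passed it (all without NUR replicate 2) and 0 changed sign.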
